A study of Mus musculus with 30 samples.

Results

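Myogenic regulators and satellite cell genes are described here by 8 genes chosen by name, *Myod1*, *Myog*, *Myf5*, *Myf6*, *Pax7*, *Mymk*, *Cdh15* and *Chrdl2*, out of the 36103 genes of the deposited count table. All 8 were found there under 1 identifier each, and all 8 passed the filter on low counts in both muscles. RNA was sequenced from the gastrocnemius, a muscle of the calf, and the diaphragm, the main muscle of breathing, and also from the heart and the liver. The mice were males of 5 weeks on the 129Pas background and either carried a constitutive knock-out of the X-linked gene *Mtm1* (Mtm1-/y, labelled Mtm1KO) or were their wild-type (WT) littermates, with no other allele or treatment named. *Mtm1* encodes myotubularin, a lipid phosphatase whose loss causes X-linked centronuclear myopathy. The gastrocnemius gave 4 WT and 4 Mtm1-/y libraries, the diaphragm 4 and 3 (the latter numbered 1, 2 and 4), the heart 4 and 4, and the liver 3 and 4. Whole tissue was sequenced, so that fewer cells of a type and less RNA per cell cannot be told apart.

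Skeletal muscle fibres are built and repaired by satellite cells, stem cells that lie between the fibre and its basal lamina and carry the paired-box transcription factor Pax7. Once activated, these cells express the basic helix-loop-helix factors Myf5 and MyoD (from *Myod1*), then myogenin (from *Myog*), leave the cell cycle, and fuse with each other or with a fibre through the membrane protein myomaker (from *Mymk*). *Myf6* (MRF4) is the member of that factor family kept at a high level in mature fibres. Fibres are not silent for the others, and *Myog* and *Myod1* transcripts are known to rise in fibres that lose their nerve supply. M-cadherin (from *Cdh15*) is an adhesion molecule of satellite cells and myoblasts, and chordin-like 2 (from *Chrdl2*) is a secreted binding partner of bone morphogenetic proteins (BMPs).

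The promoter sequences of *Myog* and *Myf5* are shown because the 2 genes encode related factors and differed in their response in these data. RefSeq promoter sequences (GRCm38.p6, 250 bases before the annotated start) were available for 4 of the 8 genes. Capitals mark matches to motifs that myogenic genes are known for, which are the E-box CANNTG, the myocyte enhancer factor 2 (MEF2) core (TA, 4 bases that are A or T, then TA) and the MEF3 motif TCAGGTTTC, all searched on both strands. The *Myog* window lies at chr1:134289754-134290003 on the plus strand and the *Myf5* window at chr10:107486135-107486384 on the minus strand, both written 5′ to 3′.
Myog: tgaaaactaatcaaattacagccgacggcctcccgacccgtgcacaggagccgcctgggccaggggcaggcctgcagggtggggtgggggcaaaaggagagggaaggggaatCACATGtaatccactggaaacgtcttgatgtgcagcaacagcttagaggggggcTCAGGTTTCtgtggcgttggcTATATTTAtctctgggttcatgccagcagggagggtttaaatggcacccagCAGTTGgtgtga
Myf5: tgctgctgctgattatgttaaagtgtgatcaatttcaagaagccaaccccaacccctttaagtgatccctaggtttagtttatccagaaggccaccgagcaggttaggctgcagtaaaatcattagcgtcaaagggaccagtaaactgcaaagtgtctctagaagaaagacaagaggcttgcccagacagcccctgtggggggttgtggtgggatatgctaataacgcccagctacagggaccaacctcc

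The *Myog* window held 2 E-boxes, CACATG from 138 to 133 bases before the start and CAGTTG from 12 to 7 bases before it, and 1 match each to the MEF3 motif (84 to 76 bases before) and the MEF2 core (63 to 56 bases before). These distances are from the RefSeq start, which lies downstream of the GENCODE start of *Myog* given below. CAGTTG thus falls inside the GENCODE span of the gene. The *Myf5* window held 0 matches to any of these motifs. Of the other windows found, that of *Cdh15* held 3 E-boxes and that of *Pax7* held 0, and neither held a MEF2 or MEF3 match. E-boxes were common, in 66.2% of the 32851 mouse promoters of the same length, while the MEF2 core was in 8.56% and the MEF3 motif in 0.387%. A match describes these letters and was not tested as a binding site.

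The 30 libraries held between 24873817 and 44289343 counted reads, and levels are given as CPM, the counts scaled to library size, on 1 scale for the 15 muscle libraries. *Mtm1* followed the labels, with 21.3 to 22.9 CPM in the WT and 4.43 to 5.91 CPM in the Mtm1-/y gastrocnemius, and with 16.6 to 25.1 CPM and 3.80 to 4.30 CPM in the diaphragm. The tissue labels were matched by *Myh4*, a fast myosin of limb muscle (26300 to 72540 CPM in the gastrocnemius), *Myh6*, the cardiac myosin (21870 to 29510 CPM in the heart), and *Alb*, the albumin of hepatocytes (90620 to 125600 CPM in the liver). The diaphragm carried liver RNA to an unequal extent. There the summed level of 21 hepatocyte markers was 46270, 31490, 687 and 35390 CPM in WT replicates 1 to 4 and 4049, 59360 and 1076 CPM in Mtm1-/y replicates 1, 2 and 4, against 43.4 to 184 CPM in the gastrocnemius. Mtm1-/y replicate 2 of the diaphragm held the most hepatocyte RNA of the 15 muscle libraries. The diaphragm results of the 8 genes and of the gene lists are given with and without it. Leaving it out made hepatocyte RNA less even between the genotypes. The median log2 difference of the hepatocyte markers (edgeR) was -0.36 with it and -3.21 without it. Results without it are thus not free of liver RNA, whose part in them was not tested.

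In the gastrocnemius of Mtm1-/y mice, *Myog* rose 3.62-fold and *Myf6* 1.88-fold, while *Pax7* fell 2.06-fold and *Chrdl2* fell 4.203-fold. These 4 genes passed edgeR's quasi-likelihood test at a Benjamini-Hochberg adjusted p under 0.05, and in each of them the 4 Mtm1-/y libraries did not overlap the 4 WT libraries. The share of all 15456 genes tested that rose was 14.1%, and 14.9% fell. The groups did not overlap for 13.8% of genes on the higher side and 16.7% on the lower side. *Myod1* and *Mymk* were higher on average but did not pass, and *Myf5* and *Cdh15* showed mean levels close to those of WT. The median log2 fold change of the 8 genes was 0.39, beside 0.02 over all genes tested.

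**Figure D1:**
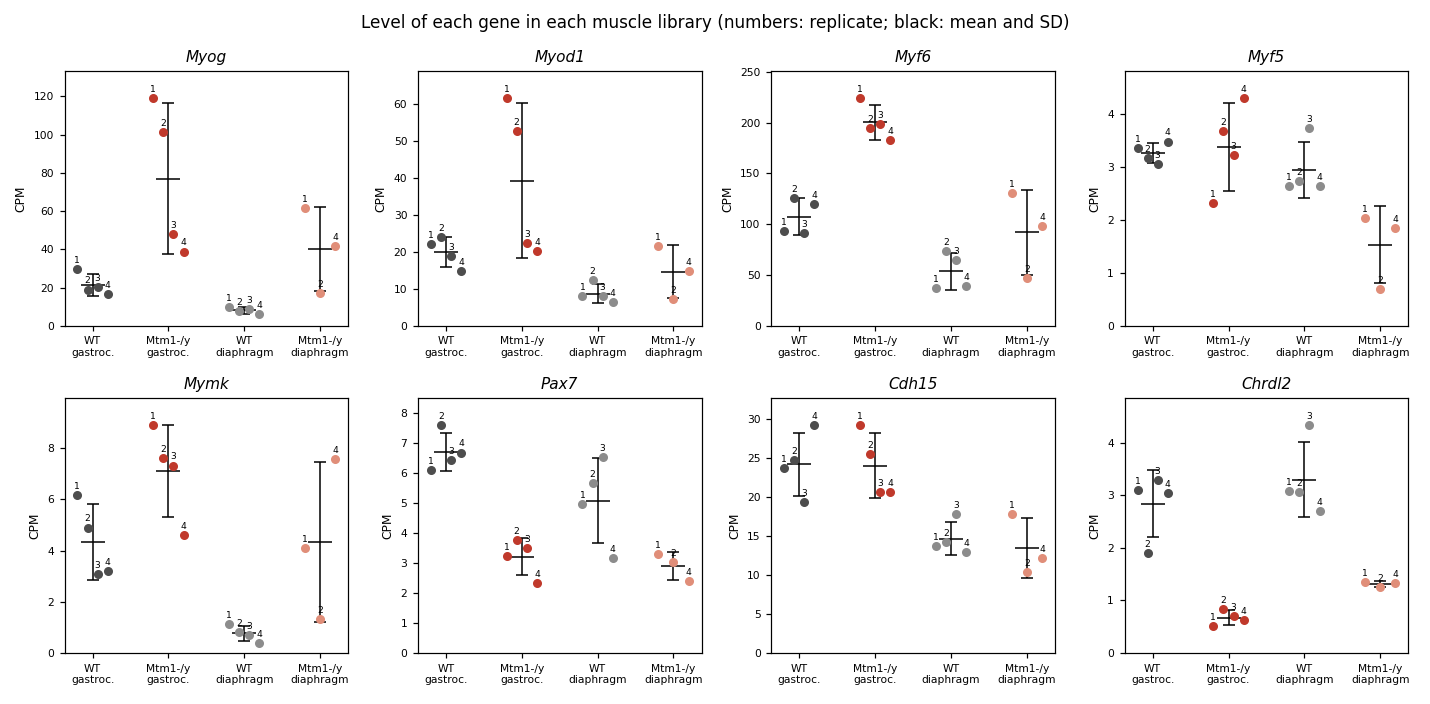
Level of each of the 8 genes in CPM (vertical axis, starting at 0) in the 15 muscle libraries, with a point for each library and its replicate number, and the mean and SD of each group in black. *Myog*, *Myf6*, *Pax7* and *Chrdl2* show no overlap between genotypes in the gastrocnemius, and Mtm1-/y replicate 2 of the diaphragm lies lowest of its group for every gene but *Pax7*.

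*Myog* (ENSMUSG00000026459, chr1:134289989-134292548 of mm10, plus strand) encodes myogenin, the factor that drives differentiation and that paralysed or denervated fibres are known to express again. In WT gastrocnemius it stood at 29.5, 18.98, 20.5 and 16.7 CPM, and in Mtm1-/y gastrocnemius at 119, 102, 48.2 and 38.8 CPM. All 4 Mtm1-/y libraries lay above all 4 WT libraries, and Mtm1-/y replicates 1 and 2 lay well above replicates 3 and 4. The log2 fold change was 1.85 ± 0.35 (SE; edgeR adjusted p = 0.00381), and with each library left out in turn it ran from 1.57 to 2.09 and passed in 8 of 8 fits.

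*Myod1* (ENSMUSG00000009471, chr7:46376474-46379099, plus strand) encodes MyoD, which commits cells to the muscle lineage and is held in adult muscle mainly by activated satellite cells and by fast or denervated fibres. It stood at 22.0, 23.9, 18.9 and 14.7 CPM for WT and 61.6, 52.7, 22.4 and 20.3 CPM for Mtm1-/y gastrocnemius. Mtm1-/y replicates 1 and 2, the same libraries that led for *Myog*, lay above every WT library, and replicates 3 and 4 lay within the WT range. The log2 difference was 0.99 ± 0.35 (SE) and did not pass (edgeR adjusted p = 0.0559). Without Mtm1-/y replicate 4 it was 1.22 (adjusted p = 0.0186) and without replicate 3 it was 1.20 (adjusted p = 0.0231), so that the call turned on which of these libraries was used.

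*Myf6* (ENSMUSG00000035923, chr10:107492853-107494737, minus strand) lies 6718 bases from *Myf5* on the same strand and encodes MRF4, the family's most abundant member in mature fibres. Its levels in WT gastrocnemius were 93.4, 126, 91.1 and 120 CPM, against 224, 195, 199 and 183 CPM in Mtm1-/y. The Mtm1-/y libraries formed a tight group above WT, with a coefficient of variation of 8.61%, where *Myog* and *Myod1* had 51.3% and 53.5%. *Myf6* rose by 0.91 ± 0.11 on the log2 scale (SE; edgeR adjusted p = 5.52e-04), and it passed without any 1 library. It was under the absolute log2 change of 1 that the study also required.

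*Myf5* (ENSMUSG00000000435, chr10:107482908-107486134, minus strand) encodes the factor that many quiescent satellite cells already transcribe. WT gastrocnemius gave 3.35, 3.17, 3.06 and 3.48 CPM, and Mtm1-/y gastrocnemius gave 2.32, 3.67, 3.22 and 4.30 CPM. The Mtm1-/y values spread around the WT values on both sides. The log2 difference was 0.06, with an approximate 95% interval from -0.31 to 0.43 (edgeR adjusted p = 0.833).

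*Mymk* (ENSMUSG00000009214, chr2:27061636-27072179, minus strand) encodes myomaker, the membrane protein without which myoblasts do not fuse. It stood at 6.18, 4.90, 3.10 and 3.19 CPM in WT, against 8.89, 7.61, 7.32 and 4.60 CPM in Mtm1-/y gastrocnemius. 3 of the 4 Mtm1-/y libraries lay above all WT libraries, and replicate 4 lay inside the WT range. The log2 difference of 0.72 ± 0.26 (SE) did not pass by edgeR (adjusted p = 0.0632) and passed by DESeq2 (adjusted p = 0.0356). DESeq2 thus called 3 of the 8 genes as risen and 2 as fallen in the gastrocnemius, beside 12.9% and 13.8% of the genes it tested.

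*Pax7* (ENSMUSG00000028736, chr4:139737062-139833528, minus strand) encodes the transcription factor that marks satellite cells and that fibres do not carry. Its levels were 6.09, 7.58, 6.42 and 6.67 CPM in WT gastrocnemius, with 184 to 196 reads per library. In Mtm1-/y gastrocnemius they were 3.23, 3.77, 3.49 and 2.33 CPM, with 78 to 121 reads. All 4 Mtm1-/y libraries lay below all 4 WT libraries, and both groups were narrow. *Pax7* fell by 1.05 ± 0.16 on the log2 scale (SE; edgeR adjusted p = 0.00137), and it passed in 8 of 8 fits without 1 library.

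*Cdh15* (ENSMUSG00000031962, chr8:122847966-122867397, plus strand) encodes M-cadherin, which holds satellite cells to the fibre and myoblasts to each other. It lies within the span of the predicted gene *Gm20388* on the same strand, but their exons do not overlap. In the gastrocnemius it stood at 23.7, 24.7, 19.3 and 29.2 CPM for WT and 29.2, 25.5, 20.6 and 20.6 CPM for Mtm1-/y. The ranges nearly coincided, and the log2 difference of 0.00 had an approximate 95% interval from -0.28 to 0.28 (edgeR adjusted p = 0.996). *Pax7* and *Cdh15*, both used as markers of satellite cells, therefore differed in what they showed in the same libraries, with 3.01 to 4.37 *Cdh15* reads per *Pax7* read in WT and 5.90 to 9.03 in Mtm1-/y.

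*Chrdl2* (ENSMUSG00000030732, chr7:100006172-100034728, plus strand), the secreted BMP-binding protein, showed the largest fold change of the 8 genes in the gastrocnemius. It had 3.11, 1.89, 3.29 and 3.05 CPM in WT, from 46 to 100 reads per library. Mtm1-/y libraries had 0.507, 0.842, 0.705 and 0.627 CPM, from 19 to 25 reads. Every Mtm1-/y library lay far below the lowest WT library. *Chrdl2* fell by 2.07 ± 0.24 on the log2 scale (SE; edgeR adjusted p = 4.35e-04), with a range of -2.22 to -1.95 when each library was left out in turn.

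Marker lists of other cell types and of muscle itself were counted in the gastrocnemius by edgeR, and single abundant genes weighed heavily in some sums. Beside these counts stand 14.1% of all genes tested that rose and 14.9% that fell. The counts of Schwann cell and hepatocyte markers lay near or under these shares. Macrophage markers rose in 11 of 12 genes, and their summed level was 65.1 to 114 CPM in WT, against 191 to 233 CPM in Mtm1-/y. Skeletal muscle identity markers fell in 15 of 19 genes and rose in 2, with sums of 332000 to 392200 CPM for WT and 215200 to 237000 CPM for Mtm1-/y. The last group includes *Acta1*, the skeletal actin, which was 66480 ± 6923 in the WT group and 39260 ± 2908 in the knock-out group (mean CPM ± SD, n = 4 each). Fibroblast markers rose in 5 of 13 genes tested (sums of 4241 to 10100 and 5006 to 12640 CPM), endothelial markers fell in 4 of 10 (636 to 775 and 453 to 556 CPM), and Schwann cell markers rose in 1 of 10 (198 to 641 and 284 to 783 CPM). White adipocyte markers rose in 7 of 15 genes and fell in 1 (4792 to 6379 and 3808 to 5211 CPM). Of the 2 B cell markers tested, *Ighm* fell from 76.8 to 6.79 CPM on average, and *Cd79b* did not pass (0.415 and 0.401 CPM, edgeR adjusted p = 0.986). The list sums were 61.8 to 86.1 and 6.06 to 9.68 CPM. Of the 3 cardiomyocyte markers tested 2 rose, with sums of 97.7 to 406 and 188 to 706 CPM. Of 20 hepatocyte markers tested, 1 rose and 3 fell. The part of these markers in the levels of the 8 genes was not tested.

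In the diaphragm, *Myog*, *Mymk*, *Myod1* and *Myf6* were higher on average in Mtm1-/y mice and *Chrdl2*, *Pax7* and *Myf5* lower, with wide spread between libraries. edgeR called 0 of the 8 genes, although 5 of them had an unadjusted p under 0.05, as had 10.8% of all genes tested, and it called 0% of all 16796 genes tested as risen and 0.0119% as fallen (2 genes, 1 of them *Mtm1*). DESeq2 called *Myog* and *Mymk* as risen and *Chrdl2* as fallen, beside 1.70% of the genes it tested that rose and 0.671% that fell. The 2 tools gave nearly the same log2 change for *Myog* (2.34 and 2.36) and different p-values. The groups did not overlap for *Myog* and *Mymk* on the higher side, as for 4.49% of all genes tested, and for *Myf5* and *Chrdl2* on the lower side, as for 5.57%. The median log2 difference of the 8 genes was 0.33, beside -0.01 over all genes tested.

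**Figure D2:**
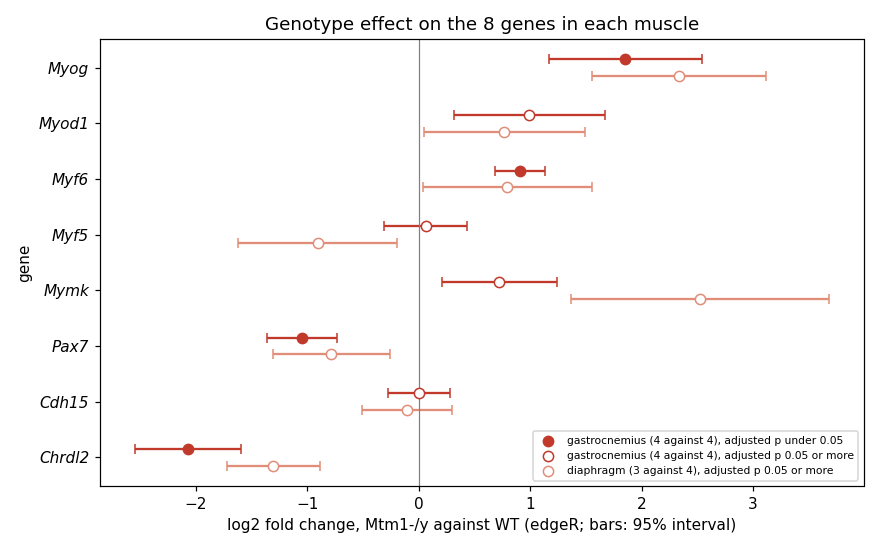
Log2 fold change of Mtm1-/y against WT (horizontal axis, edgeR) for each of the 8 genes in the gastrocnemius and the diaphragm, with approximate 95% intervals. These rest on a normal approximation and are narrower than the test allows. In the diaphragm those of *Myod1* (0.05 to 1.49) and *Myf6* (0.04 to 1.55) lie wholly on the positive side. Their unadjusted edgeR p was 0.0755 and 0.0777. Filled points passed an adjusted p under 0.05, and these are *Myog*, *Myf6*, *Pax7* and *Chrdl2* in the gastrocnemius.

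*Myog* in the diaphragm stood at 9.92, 7.60, 8.66 and 6.05 CPM in WT, against 61.4, 17.3 and 41.8 CPM in Mtm1-/y replicates 1, 2 and 4. Even the lowest Mtm1-/y library was above every WT library. The log2 difference was 2.34 ± 0.40 (SE; edgeR adjusted p = 0.264, DESeq2 adjusted p = 3.97e-06). Without Mtm1-/y replicate 2 it was 2.69, with an edgeR adjusted p of 0.0377.

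*Mymk* was scarce in WT diaphragm, at 1.118, 0.835, 0.717 and 0.396 CPM from 15 to 41 reads per library. It stood at 4.11, 1.33 and 7.59 CPM in Mtm1-/y diaphragm, from 36 to 344 reads. The Mtm1-/y libraries were all higher than WT and spread widely among themselves. The log2 difference was 2.52 ± 0.59 (SE; edgeR adjusted p = 0.279, DESeq2 adjusted p = 0.00167), and without Mtm1-/y replicate 2 it was 2.94 with an edgeR adjusted p of 0.0479. Leaving out Mtm1-/y replicate 4 instead gave a DESeq2 log2 difference of 1.89 that no longer passed (adjusted p = 0.0562).

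*Chrdl2* gave the most even values of the 8 genes in Mtm1-/y diaphragm, at 1.35, 1.25 and 1.32 CPM, against 3.08, 3.06, 4.33 and 2.70 CPM in WT. Mtm1-/y replicate 2, which was lowest for *Myog* and *Mymk*, did not stand apart here. The log2 difference was -1.30 ± 0.21 (SE; edgeR adjusted p = 0.264, DESeq2 adjusted p = 2.35e-04). DESeq2 called it in 7 of 7 fits that left out 1 library. With the mean level of the hepatocyte markers as a covariate, edgeR called it at the very edge of the threshold (log2 difference -1.36, adjusted p = 0.0499). The share of all genes called with that covariate was not computed. Of 10 alternative settings, 2 called *Chrdl2*, which were this one and DESeq2.

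*Pax7* stood at 4.96, 5.65, 6.51 and 3.17 CPM in WT diaphragm and at 3.30, 3.02 and 2.38 CPM in Mtm1-/y. WT replicate 4 fell inside the Mtm1-/y range, and the other WT libraries lay above it. The log2 difference of -0.78 ± 0.27 (SE) did not pass by edgeR (adjusted p = 0.381) or by DESeq2 (adjusted p = 0.172). DESeq2 without WT replicate 4 gave -0.94 with an adjusted p of 0.0218, and edgeR without Mtm1-/y replicate 2 gave -0.82 with an adjusted p of 0.24.

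*Myf5* had 2.64, 2.74, 3.73 and 2.64 CPM in WT diaphragm, with replicate 3 apart from the others, and 2.04, 0.700 and 1.85 CPM in Mtm1-/y. All Mtm1-/y libraries lay below all WT libraries, and replicate 2, with 19 reads, lay lowest. The log2 difference of -0.91 ± 0.37 (SE) did not pass (edgeR adjusted p = 0.44), and without replicate 2 it shrank to -0.58 (adjusted p = 0.24). *Myf6* and *Myod1* overlapped between genotypes, and for both Mtm1-/y replicate 2 lay within the WT range. *Myf6* had 37.0 to 73.5 CPM for WT and 131, 47.0 and 98.3 CPM for Mtm1-/y (log2 difference 0.80 ± 0.39 SE, edgeR adjusted p = 0.532). *Myod1* had 6.45 to 12.4 CPM in WT, against 21.7, 7.30 and 14.9 CPM in Mtm1-/y (log2 difference 0.77 ± 0.37 SE, edgeR adjusted p = 0.528). *Cdh15* differed little, with 12.95 to 17.8 CPM for WT and 10.4 to 17.8 CPM for Mtm1-/y. The approximate 95% interval of its log2 difference ran from -0.51 to 0.30. Without Mtm1-/y replicate 2 its log2 difference was 0.04.

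**Figure D3:**
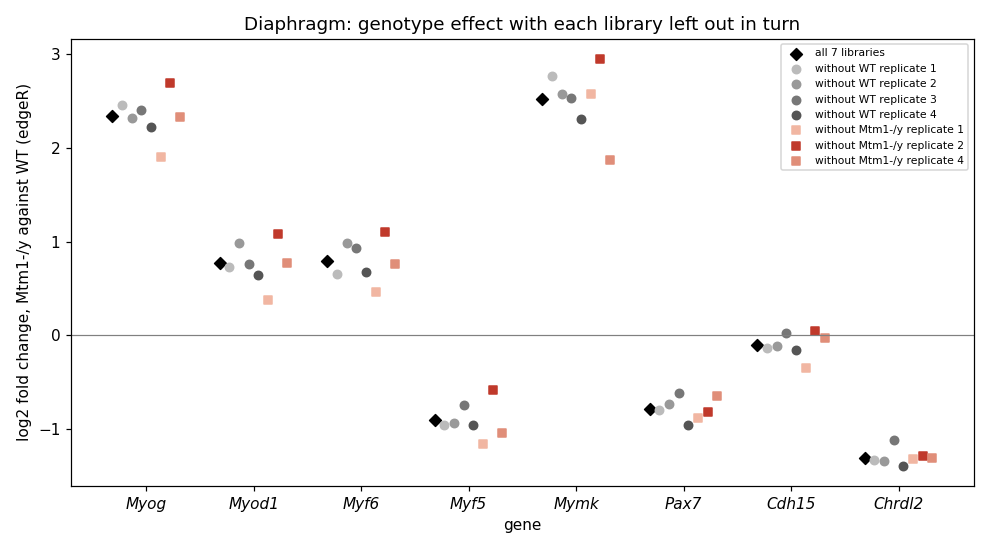
Log2 fold change of Mtm1-/y against WT in the diaphragm (vertical axis, edgeR) for each gene with all 7 libraries (black diamonds) and with each library left out (circles for WT, squares for Mtm1-/y). *Myog* ranges from 1.90 to 2.69, *Mymk* from 1.87 to 2.94 and *Chrdl2* from -1.39 to -1.12, and *Cdh15* crosses 0.

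With Mtm1-/y replicate 2 of the diaphragm left out, edgeR called 2 of the 8 genes as risen (*Myog* and *Mymk*), beside 0.729% of all genes tested that rose and 0.208% that fell. Hepatocyte RNA was then less even between the genotypes, as given above. *Chrdl2* then had a log2 difference of -1.28 (edgeR adjusted p = 0.0964). DESeq2 then called 4 as risen, with *Myod1* (log2 difference 1.11, adjusted p = 0.00774) and *Myf6* (1.14, adjusted p = 0.0113) added, and 1 as fallen, beside 5.54% and 3.83% of the genes it tested. With the hepatocyte markers as a covariate in edgeR, *Myog* had a log2 difference of 2.15 (adjusted p = 0.0766) and *Mymk* of 2.08 (adjusted p = 0.168). Of the markers of other cell types, edgeR called 0 genes of any list in the diaphragm, with or without that library. DESeq2 with all 7 libraries called 1 of 12 macrophage and 4 of 14 fibroblast markers as risen. It called 1 of 10 endothelial markers as fallen. Beside these counts stand 1.70% of the genes it tested that rose and 0.671% that fell. Without Mtm1-/y replicate 2, DESeq2 called 2 macrophage and 5 fibroblast markers as risen and 2 endothelial, 3 white adipocyte and 1 hepatocyte marker as fallen. Summed levels ran from 356 to 796 CPM in WT, against 371 to 904 CPM in Mtm1-/y for macrophage markers, and from 2997 to 5786 and 5507 to 9714 CPM for fibroblast markers. The sums were 3668 to 5085 CPM in Mtm1-/y and 6034 to 9058 CPM in WT for white adipocyte markers, without overlap. For muscle identity markers they were 86870 to 135200 CPM for WT and 89090 to 110900 CPM for Mtm1-/y, and their part in the results was not tested.

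Within each library, the ratio of *Myog* to *Pax7* reads sets a differentiation factor against the stem cell factor without any scaling between libraries. The ratio was 4.84, 2.51, 3.19 and 2.49 in WT gastrocnemius and 36.9, 26.9, 13.8 and 16.7 in Mtm1-/y gastrocnemius. In the diaphragm it was 2.00, 1.34, 1.33 and 1.91 in WT and 18.6, 5.73 and 17.5 in Mtm1-/y. The genotypes did not overlap in either muscle, and the lowest Mtm1-/y value of each muscle exceeded the highest WT value of both muscles. *Myod1* reads per *Pax7* read ran from 2.21 to 3.61 in WT and 6.41 to 19 in Mtm1-/y gastrocnemius, and from 1.25 to 2.19 and 2.41 to 6.57 in the diaphragm. *Mymk* reads per *Pax7* read ran from 0.478 to 1.02 and 1.97 to 2.75 in the gastrocnemius, and from 0.110 to 0.225 and 0.439 to 3.19 in the diaphragm. All of these ratios share the *Pax7* count, which itself fell in the gastrocnemius and was lower on average in the diaphragm. They therefore repeat the *Pax7* result in part and are not separate evidence. How many of all genes would separate the genotypes by such a ratio was not computed. The remaining ratios separated the genotypes in the gastrocnemius only. *Myf5* reads per *Pax7* read ran from 0.418 to 0.551 in WT and 0.719 to 1.85 in Mtm1-/y gastrocnemius, where the *Myf5* level itself overlapped, and from 0.485 to 0.833 and 0.232 to 0.778 in the diaphragm. *Cdh15* reads per *Pax7* read, given above for the gastrocnemius, overlapped in the diaphragm, with 2.52 to 4.08 in WT and 3.44 to 5.40 in Mtm1-/y.

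**Figure D4:**
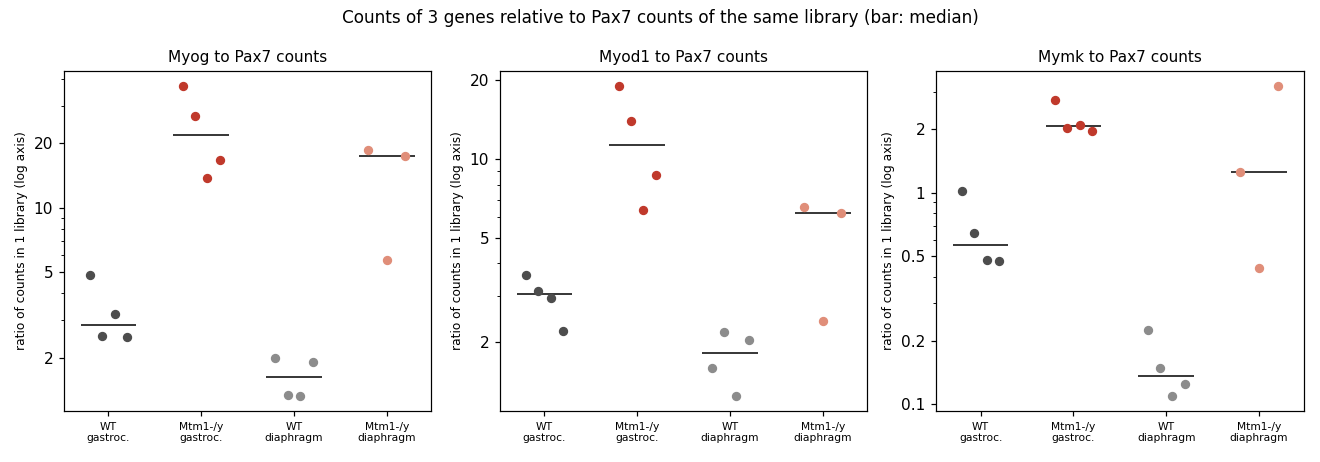
Counts of *Myog*, *Myod1* and *Mymk* divided by the *Pax7* count of the same library (log axes), with a point for each of the 15 muscle libraries and a bar at each group's median. In the 3 panels the Mtm1-/y points of a muscle lie above its WT points.

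In WT mice, 5 of the 8 genes were lower in the diaphragm than in the gastrocnemius and 0 were higher, by edgeR in 1 fit of the 15 muscle libraries. All genes tested were lower in 23.2% and higher in 31.0%, and their median log2 difference was 0.09, beside -0.86 for the 8 genes. *Mymk* was 5.64-fold lower (log2 difference -2.50 ± 0.47 SE, adjusted p = 6.74e-04), *Myog* 2.66-fold lower (-1.41 ± 0.40, adjusted p = 0.00948), *Myod1* 2.28-fold lower (-1.19 ± 0.39, adjusted p = 0.0204), *Myf6* 2.00-fold lower (-1.0004 ± 0.28, adjusted p = 0.00873) and *Cdh15* 1.65-fold lower (-0.72 ± 0.18, adjusted p = 0.00452). In each of these the 4 WT libraries of one muscle did not overlap those of the other, and DESeq2 called the same 5 genes. The share of all genes that did not overlap, or that DESeq2 called, was not computed for this comparison. Of all genes tested, 59.5% had an unadjusted edgeR p under 0.05, so these 2 counts are not a result about the 8 genes. The sums of hepatocyte markers in WT libraries did not overlap between the muscles either (77.8 to 184 CPM in the gastrocnemius, 687 to 46270 CPM in the diaphragm), nor did those of muscle identity and macrophage markers given above or of cardiomyocyte markers (97.7 to 406 and 409 to 659 CPM), and their part was not tested. *Pax7* (-0.40, adjusted p = 0.119), *Myf5* (-0.15, adjusted p = 0.656) and *Chrdl2* (0.21, adjusted p = 0.401) overlapped between the muscles. The call of *Myod1* was lost without WT gastrocnemius replicate 2 (adjusted p = 0.0515) and without WT diaphragm replicate 4 (adjusted p = 0.0592), and *Pax7* was called lower without WT diaphragm replicate 3 (adjusted p = 0.0459).

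Whether the genotype effect differed between the muscles was tested in the same fit, which called 0 of the 8 genes by edgeR, and likewise 0 by DESeq2 and limma. edgeR called 0.114% of all genes tested as larger and 0.166% as smaller in the diaphragm. At an unadjusted p under 0.05 there were 3 of the 8 genes and 12.8% of all genes tested. The log2 effect on *Mymk* was 1.79 higher in the diaphragm (approximate 95% interval 0.53 to 3.06, edgeR adjusted p = 0.286). That on *Myf5* was lower by 0.97 on the log2 scale (approximate 95% interval -1.76 to -0.18, adjusted p = 0.344). That on *Chrdl2* was 0.75 higher (approximate 95% interval 0.15 to 1.36, adjusted p = 0.34), which is a smaller loss. For *Myog* the approximate interval ran from -0.66 to 1.60. The absence of a call does not show that the effects were equal, and the fit carried the wide spread of the diaphragm libraries (common biological coefficient of variation 0.310, where the gastrocnemius alone had 0.171 and the diaphragm alone 0.394).

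Levels of different genes were compared per kilobase of exon (FPKM, here CPM divided by kilobases, from union exon lengths of 1263 bases for *Myf6* to 5860 bases for *Pax7*). In WT gastrocnemius *Myf6* led with 85.2 ± 14.2 FPKM (SD, n = 4), followed by *Myog* with 14.3 ± 3.75, *Myod1* with 10.7 ± 2.14, *Cdh15* with 7.45 ± 1.24, *Mymk* with 2.87 ± 0.979, *Myf5* with 1.57 ± 0.0896, *Pax7* with 1.14 ± 0.109 and *Chrdl2* with 0.775 ± 0.174 FPKM. Only the neighbours *Myog* and *Myod1*, and *Myod1* and *Cdh15*, overlapped in their ranges. The order was the same in Mtm1-/y gastrocnemius, from 159 ± 13.7 FPKM for *Myf6* and 51.4 ± 26.4 for *Myog* down to 0.547 ± 0.107 for *Pax7* and 0.183 ± 0.0384 for *Chrdl2* (SD, n = 4). In WT diaphragm *Myf6* again led (42.6 ± 14.5 FPKM, SD, n = 4). *Myog* (4.05 to 6.64 FPKM), *Myod1* (3.47 to 6.64) and *Cdh15* (3.98 to 5.48) overlapped there, and *Mymk* was last with 0.507 ± 0.198 FPKM. In Mtm1-/y diaphragm *Mymk* reached 2.87 ± 2.08 FPKM (SD, n = 3), above *Myf5* (0.735 ± 0.348), *Pax7* (0.495 ± 0.0800) and *Chrdl2* (0.358 ± 0.0140), although its range of 0.878 to 5.02 FPKM met that of *Myf5*.

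Heart and liver held almost none of these transcripts. *Pax7* had 0 reads in all 8 heart and 7 liver libraries, which allows up to 3 reads in each, or at most 0.119 CPM in the heart and 0.111 CPM in the liver. *Myod1*, *Myog*, *Myf5*, *Myf6*, *Mymk* and *Cdh15* had 0 to 3 reads per library in both organs, at most 0.0967 CPM. *Chrdl2* was the exception, with 4 to 24 reads per heart library (0.125 to 0.820 CPM) and 1 to 12 per liver library (0.0316 to 0.318 CPM). In the heart its level averaged 0.423 ± 0.293 for WT hearts and 0.422 ± 0.209 for Mtm1-/y hearts (CPM ± SD, n = 4 each), so that the genotypes overlapped.

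Genes that act with the 8 were followed as lists of known function, given as counts of genes that passed the test in the gastrocnemius by edgeR. These counts stand beside 14.1% of all genes tested that rose there and 14.9% that fell. Of 31 satellite cell genes tested (with *Pax7*, *Myf5* and *Cdh15* among them), 4 rose and 5 fell, near the shares of all genes. Their median log2 fold change was 0.0013. The summed level of the 32 genes of the list was higher in Mtm1-/y, at 4320 to 5244 CPM in WT and 5567 to 7800 CPM in Mtm1-/y. *Calcr*, the calcitonin receptor of quiescent satellite cells, fell from 1.48 to 2.00 CPM in WT to 0.0613 to 0.270 CPM in Mtm1-/y (change of -3.61 ± 0.35 SE on the log2 scale, adjusted p = 1.84e-04), and *Fgfr4*, a growth factor receptor of myogenic cells, fell from 9.90 ± 0.516 to 4.02 ± 0.729 CPM (SD, n = 4). *Itgb1* and *Itga7*, integrin chains that fibres also carry, rose by 0.49 and 0.66 on the log2 scale. In the diaphragm *Calcr* had a log2 difference of -2.03 (edgeR adjusted p = 0.264, DESeq2 adjusted p = 4.58e-05) and *Fgfr4* one of -0.36 (DESeq2 adjusted p = 0.959). DESeq2 called 1 of the 32 satellite cell genes as risen and 2 as fallen there. Without Mtm1-/y replicate 2 it called 4 as risen and 4 as fallen, with *Calcr* at -2.16 (adjusted p = 8.29e-05) and *Fgfr4*, which hepatocytes are also known to express, at -1.47 (adjusted p = 0.0125).

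Among 32 myogenic transcription factors and partners, 5 rose and 8 fell. Besides *Myog* and *Myf6*, those named by smallest p fell, and they were *Carm1*, a coactivator of MEF2 factors (116 to 75.6 CPM on average), *Smarcd3*, the chromatin remodelling subunit BAF60c (190 to 117 CPM), *Lbx1*, a homeobox factor of limb muscle (39.0 to 26.1 CPM), and *Mrtfa*, a coactivator of serum response factor (65.6 to 39.6 CPM). Of 24 inhibitors of the myogenic factors, 7 rose and 2 fell. *Id2*, which binds the partners of MyoD and keeps them from DNA, rose from 3.21 ± 0.558 to 10.5 ± 1.03 CPM (SD, n = 4), and *Tgfb1* rose from 5.92 to 12.3 CPM. *Hes6* rose from 7.16 to 12.1 CPM. It was counted in this list although it is known to promote myogenic differentiation, so its rise is not a rise of an inhibitor. *Mstn*, which encodes myostatin, the secreted restraint on muscle growth, fell from 130 ± 29.6 to 39.1 ± 8.01 CPM (SD, n = 4). In the diaphragm *Mstn* had an edgeR log2 difference of -1.70 (DESeq2 adjusted p = 5.32e-07). The log2 difference there was 0.02 for *Carm1*, -0.11 for *Smarcd3*, 0.17 for *Lbx1* and -0.10 for *Mrtfa*. It was 0.16 for *Id2*, 0.36 for *Tgfb1* and -0.06 for *Hes6*. Apart from *Mstn*, none of these passed there by edgeR or DESeq2.

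Of 30 myoblast fusion genes tested, 3 rose and 4 fell. *Mymx*, which encodes myomixer, the partner of myomaker, rose from 0.0666 to 0.329 CPM in WT to 0.797 to 3.04 CPM in Mtm1-/y gastrocnemius (log2 fold change 3.35 ± 0.51 SE, adjusted p = 0.00134). Its level was thus low in WT and did not overlap between genotypes. *Dock5*, an exchange factor for Rac, rose from 1.23 to 2.39 CPM, *Stab2*, a scavenger receptor, fell from 12.6 to 4.39 CPM, and *Elmo2*, a partner of the Dock proteins, fell from 34.6 to 27.0 CPM. In the diaphragm *Mymx* had 0.0642 to 0.245 CPM in WT, against 0.295 to 0.596 CPM in Mtm1-/y (edgeR adjusted p = 0.301, DESeq2 adjusted p = 0.144, and without Mtm1-/y replicate 2 DESeq2 adjusted p = 0.0741). *Dock5*, *Elmo2* and *Stab2* had edgeR log2 differences of 0.07, -0.02 and -0.27 there and did not pass by edgeR. Without Mtm1-/y replicate 2, *Stab2* had a DESeq2 log2 difference of -2.22 (adjusted p = 0.00141).

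The list of embryonic and differentiation genes, many of them known targets of myogenin or genes that immature fibres express, held the most genes that rose, 19 of 29, with 2 that fell and a median log2 fold change of 1.1047 (all genes tested, 0.02). *Ankrd1*, a stress-induced ankyrin repeat protein, rose from 2.48 to 7.65 CPM in WT to 61.1 to 141 CPM in Mtm1-/y. *Runx1*, a factor induced by denervation, rose from 1.54 to 3.11 CPM to 16.3 to 50.6 CPM. *Ncam1*, an adhesion molecule of immature and denervated fibres, rose from 14.97 ± 2.60 to 50.7 ± 10.5 CPM, and *Myh8*, the perinatal myosin, from 13.2 ± 0.607 to 27.0 ± 4.27 CPM (SD, n = 4). In the diaphragm the median log2 difference of the list was 1.01, edgeR called 0 of its genes, and DESeq2 called 14 as risen and 1 as fallen. There *Ankrd1* had 1.39 to 7.11 CPM for WT and 27.1 to 351 CPM for Mtm1-/y (DESeq2 adjusted p = 4.53e-06), and *Runx1* had 3.33 to 4.84 and 7.26 to 27.9 CPM (DESeq2 adjusted p = 1.26e-05). Without Mtm1-/y replicate 2, edgeR called 6 of the list's 29 genes as risen, among them *Ankrd1* (adjusted p = 0.0396) and *Runx1* (adjusted p = 0.0225), and DESeq2 called 18 as risen and 1 as fallen.

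In the chordin family and BMP signalling list, which holds *Chrdl2*, 10 of 35 genes tested rose and 5 fell. *Fst*, which encodes follistatin, a binding protein of activins and myostatin, rose from 7.98 ± 1.29 to 28.8 ± 6.29 CPM, and *Gdf6*, a ligand of the BMP family, rose from 0.3004 ± 0.0924 to 1.67 ± 0.247 CPM (SD, n = 4). *Id2* and *Mstn* belong to this list too, and *Id2* did not pass in the diaphragm (DESeq2 adjusted p = 0.985). In the diaphragm *Fst* (9.39 ± 2.04 to 19.2 ± 5.93 CPM) and *Gdf6* (0.552 ± 0.163 to 2.00 ± 0.953 CPM; SD, n = 4 and 3) were called as risen by DESeq2 (adjusted p = 0.00958 and 0.00208) and *Mstn* as fallen (adjusted p = 5.32e-07), and all 3 passed by DESeq2 without Mtm1-/y replicate 2 too, with log2 differences of 1.28, 2.19 and -1.56. Of 24 cell cycle genes, 5 rose and 2 fell, with a median log2 fold change of 0.92. *Rrm2*, a subunit of ribonucleotide reductase, rose from 3.33 to 5.81 CPM and *Kif11*, a spindle kinesin, from 2.497 to 4.82 CPM. *Ube2c* and *Aurka*, both of mitosis, fell from 29.2 to 15.4 CPM and from 20.4 to 10.3 CPM, and DESeq2 called 10 of the 24 genes as risen. Diaphragm log2 differences by edgeR were 1.40 for *Kif11*, 0.29 for *Rrm2*, -0.24 for *Ube2c* and 0.06 for *Aurka*. None of these passed there by edgeR or DESeq2 with all 7 libraries. Without Mtm1-/y replicate 2, *Kif11* passed by DESeq2 (adjusted p = 7.99e-04). In the diaphragm, where edgeR with all 7 libraries called 0 genes of these lists, DESeq2 called 1 of the 32 myogenic factors and partners, 1 of 29 fusion genes, 3 of 24 cell cycle genes and 3 of 36 genes of the BMP list as risen, and 2 of 24 inhibitors and 3 of the 36 as fallen. Without Mtm1-/y replicate 2, DESeq2 called 6 myogenic factors and partners, 5 of 30 fusion genes, 14 cell cycle genes and 4 genes of the BMP list as risen, and 3 inhibitors, 1 fusion gene and 4 genes of the BMP list as fallen. These lists were put together with results of these data known, so that their counts are a description.

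**Figure D5:**
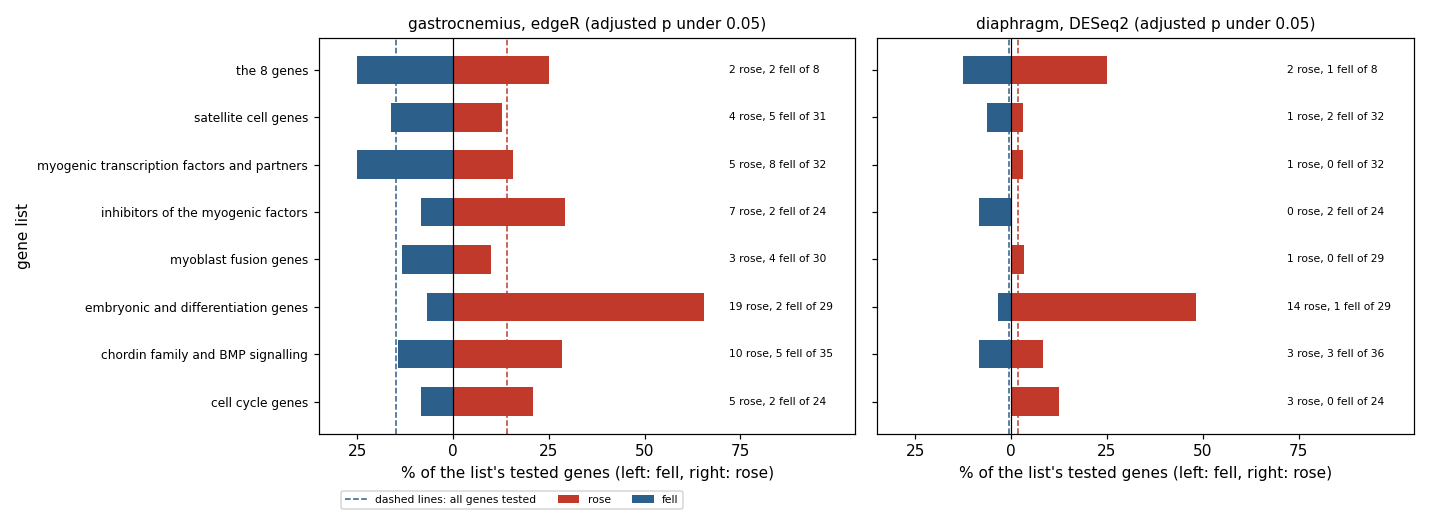
Percentage of each list's tested genes that rose (right) or fell (left) in Mtm1-/y muscle at an adjusted p under 0.05, by edgeR in the gastrocnemius and by DESeq2 in the diaphragm, with the counts printed beside the bars. Dashed lines mark the share of all genes tested (14.1% and 14.9% in the gastrocnemius, 1.70% and 0.671% in the diaphragm), and the embryonic and differentiation genes reach 19 of 29 and 14 of 29.

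The genes whose pattern over the 15 muscle libraries was nearest to *Myog*, by the root mean square difference of log2 CPM centred on each gene's mean among 13398 genes, were *Tnfrsf23* (0.516), *Nes* (0.524) and *Ampd3* (0.525), where the median gene lay at 1.32. *Nes*, which encodes the intermediate filament nestin, had means of 109 and 245 CPM in WT and Mtm1-/y gastrocnemius and 58.2 and 186 CPM in the diaphragm. Nearest to *Pax7* were *Gm17354* (0.229), *Asb2* (0.243) and *Lgalsl* (0.246), beside a median of 0.627. *Asb2*, a subunit of a ubiquitin ligase, had means of 518 and 293 CPM in the gastrocnemius and 346 and 231 CPM in the diaphragm, so that an abundant gene followed the pattern of the scarce *Pax7*. Nearest to *Chrdl2* were *Mettl21e* (0.346), *Magix* (0.374) and *Ybx2* (0.391), beside a median of 0.993. *Mettl21e*, a methyltransferase of muscle, had means of 77.2 and 28.0 CPM in the gastrocnemius and 79.2 and 47.4 CPM in the diaphragm. Libraries share depth and composition, and these distances are a description.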

How the data were processed

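RNA was extracted from snap-frozen tissue, and poly(A) libraries were prepared by the authors with the TruSeq Stranded mRNA kit and sequenced as single reads. Per the labels, reads were handled with bcl2fastq 2.17.1.14, cutadapt 1.10, STAR 2.5.3a on mm10 and HTSeq 0.6.1p1. The authors deposited raw read counts per gene for 30 libraries, with no normalization, and the strand setting of the counting is not given in the sources used here. Columns were matched to groups by the library names. Promoters came from RefSeq (GRCm38.p6), gene positions and exon lengths from GENCODE M21 (mm10).

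Within each muscle, genes were filtered with filterByExpr (minimum count 10), libraries were scaled by TMM, and genotypes were compared with the quasi-likelihood test of edgeR 4.0.16 in R 4.3.3, adjusted over all genes tested by Benjamini-Hochberg. The threshold for a call was an adjusted p of 0.05. The muscles were compared in 1 fit of 4 groups. DESeq2 1.42.0 and limma 3.58.1 (voom with sample weights) were alternatives, with others described below. Intervals are 1.96 SE wide on each side. This normal approximation is narrower than the quasi-likelihood test allows with so few libraries. An interval that leaves out 0 is therefore not a call. Tests are two-sided, and the scripts were tested on simulated data. The paper gives the number of mice in each group, which equals the number of libraries here. Nothing states which libraries of different tissues came from the same animal. The p-values measure the spread between these libraries. CPM of heart and liver are unscaled. The floor for 0 reads is 3 counts and covers counting error only.

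Named genes are the 8 genes, *Mtm1*, up to 4 called genes with the smallest gastrocnemius p per functional list, the 2 most abundant genes per list of other cell types, and the 3 nearest genes of *Myog*, *Pax7* and *Chrdl2*. The 8 genes and all lists were chosen with earlier results of these data known. *Myh6* was added to check the heart label.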

Additional observations from a re-analysis of the deposited data

Results flagged for a closer look

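Among 27 groups of 4 libraries examined gene by gene, 1 held a library far from the others, and chance marks about 1 in 20 such groups. *Myf5* in WT diaphragm replicate 3 had 3.73 CPM, while the other WT libraries of the diaphragm lay between 2.64 and 2.74 CPM, so that its gap took 0.911 of the whole range of the group. That library also had the lowest hepatocyte marker sum of the 7 diaphragm libraries (687 CPM), and whether this bears on *Myf5* was not tested. Without it the log2 difference of *Myf5* between genotypes was -0.74 (edgeR adjusted p = 0.536), and with it -0.91.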

How the results depend on the processing

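In the gastrocnemius, 2 genes rose and 2 fell under the DESeq2 size factors, without a filter on low counts, with robust dispersions and without liver-enriched genes. In limma voom 3 rose (*Mymk* added, adjusted p = 0.0484), in DESeq2 likewise 3, and in 1 fit of all 30 libraries 3 (*Myod1* added, adjusted p = 0.0453). With the replicate number as a block 4 rose (*Myod1* and *Mymk* added, adjusted p = 0.0232 and 0.0162). With the added threshold of an absolute log2 change over 1 the count of risen genes was 1, since *Myf6* was under it. Without 1 library the count that rose ran from 2 to 4, and 4 came without Mtm1-/y replicate 4. In the diaphragm, where edgeR called 0 genes, 2 rose by DESeq2 and by 1 fit of all 30 libraries, 1 fell by DESeq2 and with the hepatocyte covariate, and 0 to 2 rose without 1 library (2 without Mtm1-/y replicate 2). DESeq2 without 1 diaphragm library, an alternative added after the data were seen, called 1 to 4 as risen (1 without Mtm1-/y replicate 4) and 1 to 2 as fallen (2 without WT replicate 4). The list counts without Mtm1-/y replicate 2 of the diaphragm were likewise added. No called change of the 8 genes turned its direction under any alternative. For the genotype comparisons, shares of all genes called were computed only for edgeR, DESeq2 and the fits without Mtm1-/y replicate 2 of the diaphragm. The other counts of this section, with those of the replicate block, lack that comparison and are not a result about the 8 genes.

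Libraries with the same number did not all deviate together (1 of 4 numbers in the gastrocnemius and 1 of 3 in the diaphragm, number 2 in both, correlated best with its own, correlations from -0.038 to 0.104 in the gastrocnemius and from -0.637 to 0.46 in the diaphragm), so the numbers were not taken as pairs. With the replicate block, 0 genes were called by genotype in the diaphragm, 6 were lower in WT diaphragm than in WT gastrocnemius (*Pax7* added), and 0 effects differed between the muscles. Depth limits *Chrdl2* in Mtm1-/y gastrocnemius (19 to 25 reads) and *Mymk* in WT diaphragm (15 to 41 reads). It also limits *Calcr* in Mtm1-/y gastrocnemius and *Mymx* in WT gastrocnemius, whose lowest values (0.0613 and 0.0666 CPM) lay under the floor of 3 counts.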
